A study of Mus musculus with 18 samples.

Results

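The strain ratio of each gene, DBA/2J over C57BL/6J, was compared between whole brain and whole kidney of these 2 inbred mouse strains. The comparison used the 6 two-colour arrays titled brain and the 6 titled kidney, out of 18 arrays in all, and the other 6 arrays (whole liver) only lent their spread to the fit. On every array an RNA pool of DBA/2J, labelled with Alexa Fluor 647, was hybridised with an RNA pool of C57BL/6J, labelled with Alexa Fluor 555. Each brain or kidney pool held RNA of 10 mice, and each liver pool RNA of 9. No treatment is named in the labels, and the sources used here give neither age nor sex. Within a tissue the 6 hybridisations shared both pools, so the p-values measure the spread between hybridisations and not between mice. No dyes were swapped, and an effect of dye on a spot that is constant over arrays therefore stays in the ratio of a single tissue, but cancels in the difference between tissues.

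DBA/2J and C57BL/6J separated early in the history of laboratory mice and carry different alleles at many loci. An allele that changes the gene itself can act in every tissue that makes the RNA, whereas an allele in a regulatory sequence or in an upstream factor can act in a single tissue. Brain and kidney have few cell types in common. Kidney tubules make large amounts of secreted proteases, transporters and enzymes of fatty acid and drug metabolism, several of them under control of androgens, and brain makes neuropeptides, transmitter receptors, myelin and the proteins of astrocytes.

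Throughout, a strain ratio is a mean log2 ratio after normalisation within each array, where a value above 0 stands for more RNA in DBA/2J. That direction is likely but not stated, and was taken from the order of dyes given with the samples together with limma's usual order of channels. The difference is the brain ratio minus the kidney ratio on the log2 scale. A positive difference means that DBA/2J stood higher, relative to C57BL/6J, in brain than in kidney. Errors are SDs over 6 arrays or standard errors (SE) of a difference. A feature passed where its adjusted p in limma, with Benjamini-Hochberg adjustment over all 20218 features, was under 0.05.

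The arrays held 21765 usable spots, which gave 20218 features, 15095 of them named genes. The labels of the tissues were borne out by spot brightness for 9 of the 10 marker genes on the arrays. The neuronal markers Snap25, Syt1, Nefl and Gad1 and the myelin marker Mbp were brighter on the brain arrays, and the kidney markers Umod, Kap, Slc34a1 and Lrp2 on the kidney arrays. The spot named Slc22a6, an anion transporter of the proximal tubule, was bright in both (percentile 98.8 of brightness in brain and 98.9 in kidney). Brain arrays agreed less among themselves than kidney arrays did. The mean correlation between arrays, across features, was 0.381 in brain (range 0.176 to 0.609) and 0.613 in kidney (range 0.504 to 0.687), and between a brain and a kidney array it was 0.183. Kidney array 3 stood apart from the other kidney arrays for 12 of the genes named here, and values without it are given where they matter. The 2 spots of 902 genes agreed poorly in the difference (Pearson's r of 0.0851 across genes), so a spot may not stand for the gene it is named after. Of 43 of these genes whose 2 spots both passed when fitted singly, only 22 had the same sign in both. For 69 genes, whose spots both changed strongly and alike in brightness between tissues, r was 0.40. In 3 of those 69 both spots passed, all 3 with the same sign.

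The difference passed for 4074 of 20218 features (20.2%), 2173 with the ratio higher in brain (10.7%) and 1901 with the ratio higher in kidney (9.4%). A difference of at least 1.5-fold was found for 943 of these (4.66%), 571 higher in brain (2.82%) and 372 higher in kidney (1.84%), and 120 reached 2-fold. This split of the 1.5-fold differences turned to 1419 higher in brain and 1762 higher in kidney without loess normalisation, and to 467 and 582 where the spot intensities were not restored. Of the 107 genes named below that passed, 42 did not pass without loess, which moved the value of 70 by over 1.5 times, and 24 did not pass with intensities not restored. The 6 brain values lay wholly apart from the 6 kidney values for 1533 features (7.58%). Against 0, the ratio of 4120 features passed in brain (20.4%) and of 7071 in kidney (35%). Of the 943 features, 443 had a ratio that differed from 0 in kidney only, 282 in brain only, 161 in both with opposite signs, 51 in both with the same sign and 6 in neither. The ratio was the larger of the pair in kidney for 559 of them and in brain for 384. Across all features the brain and kidney ratios had a Pearson's r of 0.309, the median size of a difference was 0.17 and its median SE was 0.12.

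**Figure D1:**
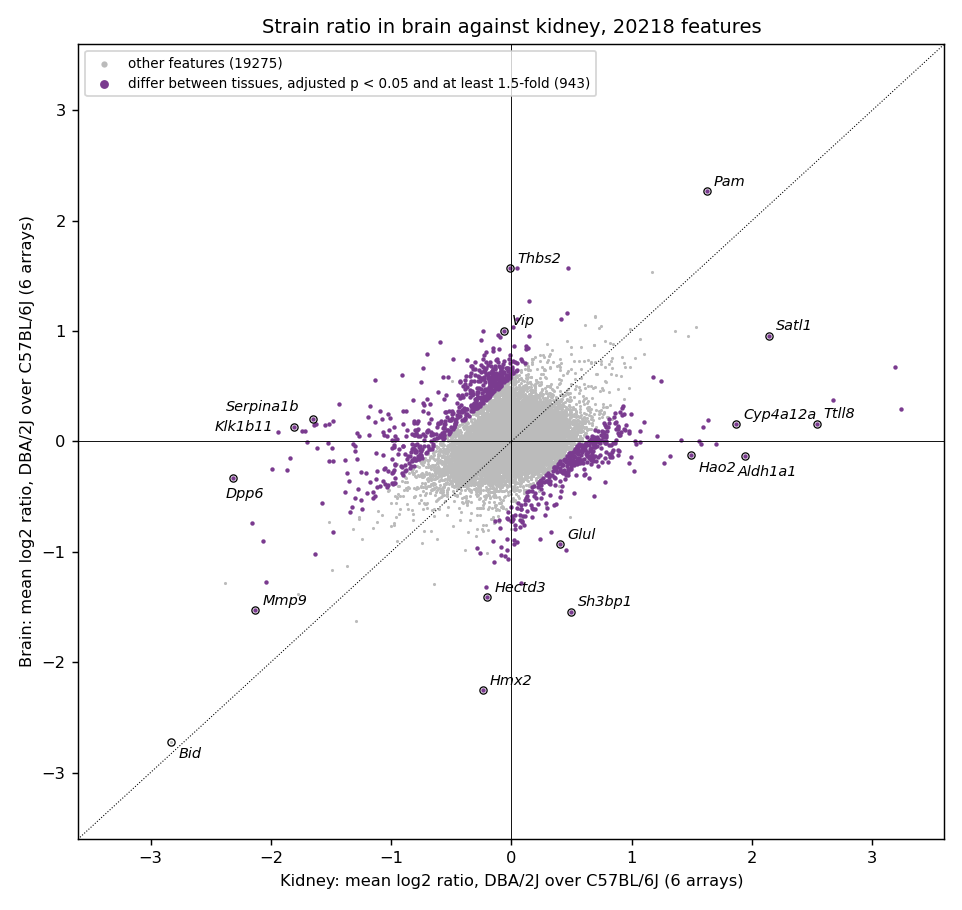
Each point is a feature, with its mean log2 strain ratio over 6 kidney arrays on the x axis and over 6 brain arrays on the y axis. The 943 purple features, which differ at least 1.5-fold between the tissues, include 443 with a ratio past the threshold in kidney only and 282 in brain only, and Bid, at -2.83 in kidney and -2.72 in brain, lies on the dotted line of equal ratios.

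A group in which every measured member passed was formed by the Serpina1 genes, mouse copies or relatives of the gene for alpha-1-antitrypsin, the plasma inhibitor of neutrophil elastase. All 6 such genes on the arrays, Serpina1a to Serpina1f, had a lower ratio in kidney than in brain, with differences between 1.24 and 1.86, and for each of them the 6 brain values lay apart from the 6 kidney values. All 6 also passed without loess, with smaller differences of 0.47 to 1.29, and with intensities not restored, with 0.79 to 1.68. In kidney their means ran from -1.72 to -1.18, and in brain from -0.01 to 0.21. Serpina1b gave kidney values between -1.83 and -1.48 with a median of -1.66, against brain values between -0.43 and 0.58 with a median of 0.29. DBA/2J kidney thus stood 3.14-fold below C57BL/6J in the mean while the brain values lay on both sides of 0, and the difference was 1.86 ± 0.25 (SE, adjusted p = 2.13e-05). Serpina1a gave -2.01, -1.81 and -1.07 as lowest, median and highest kidney values and -0.15, 0.07 and 0.44 in brain. Kidney array 3 was the highest of its kidney values, and without that array the difference grew from 1.82 to 1.95. Serpina1a to Serpina1e are close in sequence, so which of these a spot measured is uncertain and their spots are not independent. Serpina1f was not compared with them in sequence, and what its spot shares with theirs was not tested.

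The stretch before the start site shows how alike these copies are, and it is printed for the 5 copies that hold GTTAATATTCAC. These 12 bases open with GTTAAT, a half-site of HNF1, a transcription factor of liver and kidney epithelium, and were read from Serpina1a. The stretches are from RefSeq, build GRCm38.p6, 5′ to 3′ on the minus strand, with the 12 bases in capitals.
Serpina1a (chr12:103863620-103863680): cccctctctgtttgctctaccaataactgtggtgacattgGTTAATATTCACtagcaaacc
Serpina1b (chr12:103738194-103738255): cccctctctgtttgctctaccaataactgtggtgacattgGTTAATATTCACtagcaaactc
Serpina1c (chr12:103904956-103905017): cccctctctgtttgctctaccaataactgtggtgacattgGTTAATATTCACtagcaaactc
Serpina1d (chr12:103773634-103773689): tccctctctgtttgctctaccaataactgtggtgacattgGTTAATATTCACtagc
Serpina1e (chr12:103956954-103957015): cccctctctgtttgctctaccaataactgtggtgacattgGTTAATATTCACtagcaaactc
Over 56 to 62 aligned bases these stretches were 98.2% to 100% identical. On either strand the motif was found in the 250 bases before the start site of 5 of 32851 promoters in the table (0.0152%). These are the 5 shown, and these letters are not in that window of Serpina1f. Since the 12 bases were read from Serpina1a, their presence in near-identical copies was fixed in advance. How many promoters hold GTTAAT alone was not counted. Serpina1f had the smallest difference of the 6, 1.24 ± 0.11, and its spot was dim in brain (percentile 8.68). Whether the motif bears on the differences was not tested. The tables give the C57BL/6J reference only, so no DBA/2J sequence was compared.

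The glandular kallikreins of the Klk1b cluster, secreted serine proteases that are made in salivary gland and in kidney, moved in the same direction. Of 9 Klk1b features 8 had a lower ratio in kidney than in brain, none had a higher ratio, and Klk1b16 did not pass. The median difference of the 9 was 1.70, and 0.93 without loess, where 7 were higher and Klk1b16 was lower. For Klk1b11 the kidney values lay between -1.92 and -1.58 with a median of -1.83, and the brain values between -0.04 and 0.32 with a median of 0.11. All kidney arrays were thus low and no brain value came near them, and the difference of 1.94 ± 0.09 amounted to 3.83-fold (adjusted p = 1.12e-12), or 0.99 without loess. Its 3 spots gave differences of 1.81, 1.95 and 2.05. Klk1b24 had the lowest kidney mean of the cluster, -1.99 ± 0.14, with array 5 at -1.72 and the others at -2.02 or below, and stood at -0.25 ± 0.21 in brain. Differences of 1.70 to 1.78 were also found for the features named Klk1b14-ps, Klk1b2-ps and Klk1b10-ps, of 1.68 for Klk1b19-ps, of 1.56 for Klk1b18-ps and of 0.43 for Klk1b7-ps. Klk1b16 had values on both sides of 0 in both tissues, and its difference was -0.12 ± 0.12 (adjusted p = 0.499), which became -0.62 without loess.

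To compare Klk1b16 with its neighbours that fell in kidney, the stretch around TTTAAA, the variant TATA box of kallikrein genes, is printed for 3 of them (RefSeq, build GRCm38.p6, 5′ to 3′ on the plus strand, motif in capitals).
Klk1b11 (chr7:43995767-43995852): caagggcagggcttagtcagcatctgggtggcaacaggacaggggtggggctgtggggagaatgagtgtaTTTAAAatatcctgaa
Klk1b24 (chr7:44188135-44188220): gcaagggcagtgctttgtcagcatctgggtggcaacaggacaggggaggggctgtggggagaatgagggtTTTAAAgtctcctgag
Klk1b16 (chr7:44137181-44137266): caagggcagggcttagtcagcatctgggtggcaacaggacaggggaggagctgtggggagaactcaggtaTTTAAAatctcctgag
All 3 hold the motif, which occurs on either strand in the same window of 12.1% of all promoters in the table. Without gaps Klk1b11 and Klk1b16 were 89.5% identical here, Klk1b11 and Klk1b24 82.4%, and Klk1b16 and Klk1b24 78.8%. The Klk1b genes share most of their coding sequence as well, and cross-hybridisation between them was not tested. Their spots were bright in kidney (percentile 93.3 to 97.8) and in brain lay between percentile 22.9 and 93.0.

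Outside these families the largest positive difference belonged to Dpp6, an auxiliary subunit of A-type potassium channels in neurons. Its kidney values ran from -2.64 over a median of -2.31 to -1.92, and its brain values from -0.55 over -0.35 to -0.05. Both tissues were thus below 0, kidney 4.97-fold and brain 1.26-fold, and the difference was 1.99 ± 0.16 (adjusted p = 6.79e-09). The spot was brighter in brain (percentile 89.7) than in kidney (percentile 49.4). Pih1d2, a factor of cilia assembly, had a kidney mean of -1.55 ± 0.38 and a brain mean of 0.15 ± 0.48 with array 1 at 1.10. Its spot was among the dimmest in brain (percentile 0.779) and among the brightest in kidney (percentile 98.1), and its difference of 1.70 did not pass without loess (0.44) or with intensities not restored (0.53). For the transcript 1700025M24Rik kidney array 1 stood at -5.12 and the others between -1.46 and -0.72. Without that array its difference went from 1.84 to 1.16 and still passed, but it did not pass without loess (0.88) or with intensities not restored (1.02).

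On the other side, several enzymes had a ratio far above 0 in kidney and near 0 in brain. Ttll8, a tubulin glycylase of cilia, had the largest difference of all named genes. Its kidney values lay between 1.80 and 2.92 with a median of 2.57 and its brain values between -0.16 and 0.43 with a median of 0.17. Kidney was high on all 6 arrays, and the difference of -2.38 ± 0.16 amounted to 5.19-fold (adjusted p = 2.86e-10). Of the other 10 genes of the tubulin ligase family on the arrays, 4 had a higher ratio in brain and 6 did not pass. Aldh1a1, a retinaldehyde dehydrogenase, had kidney values from 1.38 to 2.43 (median 2.07) and brain values from -0.47 to 0.25 (median -0.08). All its kidney values were high and, as the choice of these genes required, apart from brain. The difference was -2.08 ± 0.17 (adjusted p = 1.27e-08). Golga7, which takes part in protein palmitoylation at the Golgi, reached 1.41 ± 0.37 in kidney against 0.01 ± 0.20 in brain. The transcript 5031434O11Rik averaged 1.70 ± 1.70 in kidney, where array 5 gave 4.6 and array 6 gave 2.98, while the remaining 4 lay between 0.40 and 0.83. Its difference went from -1.73 to -1.15 without kidney array 5.

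Peroxisomal and mitochondrial acid metabolism gave some of the sharpest contrasts between related genes. Hao2, a peroxisomal oxidase of long-chain hydroxy acids, had kidney values between 0.67 and 1.77 with a median of 1.68, and brain values between -0.36 and 0.12 with a median of -0.19. Kidney array 3 was the low value at 0.67, and with it the difference was -1.62 ± 0.14 (adjusted p = 3.78e-08) and without it -1.79. Its relative Hao1, near the bottom of brightness in both tissues, gave 0.06 ± 0.30 and did not pass. Acsm1 and Acsm3, which encode medium-chain acyl-CoA synthetases of mitochondria, went in opposite directions. Acsm1 stood at 1.31 ± 0.27 in kidney and -0.13 ± 0.19 in brain, with all kidney values at 1.03 or above, and its difference was -1.45 ± 0.13 (adjusted p = 3.78e-08). Acsm3 stood at -1.32 ± 0.20 in kidney, with all values at -1.10 or below, and at -0.02 ± 0.19 in brain, and its difference was 1.30 ± 0.12 (adjusted p = 3.83e-08, and 0.48 without loess). Brain spots of Acsm1 were dim (percentile 1.25), so its brain ratio carries little signal.

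A further set of genes had a ratio well below 0 in brain and near 0 in kidney. Hmx2, a homeobox gene of inner ear and hypothalamus, gave brain values from -3.10 over a median of -2.28 to -1.23 and kidney values from -0.50 over -0.16 to -0.04. The brain arrays were low and spread widely, without overlap with kidney, as the choice of these genes required. The difference was -2.02 ± 0.22 (adjusted p = 7.54e-07). Hectd3, a ubiquitin ligase, gave brain values from -1.55 to -1.05 (median -1.47) and kidney values from -0.52 to 0.16 (median -0.24). Brain was low on every array, array 3 least so, and the difference was -1.22 ± 0.12 (adjusted p = 2.67e-07). P2rx5, an ATP-gated cation channel, stood at -1.28 ± 0.46 in brain and 0.08 ± 0.15 in kidney, a difference of -1.36 ± 0.15. Clec1b, a receptor of platelets, completed the 12 lowest, with 1.27 ± 0.33 in kidney and -0.19 ± 0.72 in brain. Its kidney spot was among the dimmest (percentile 0.176), and its difference of -1.46 became -0.37 without loess and -0.53 with intensities not restored, neither of which passed.

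**Figure D2:**
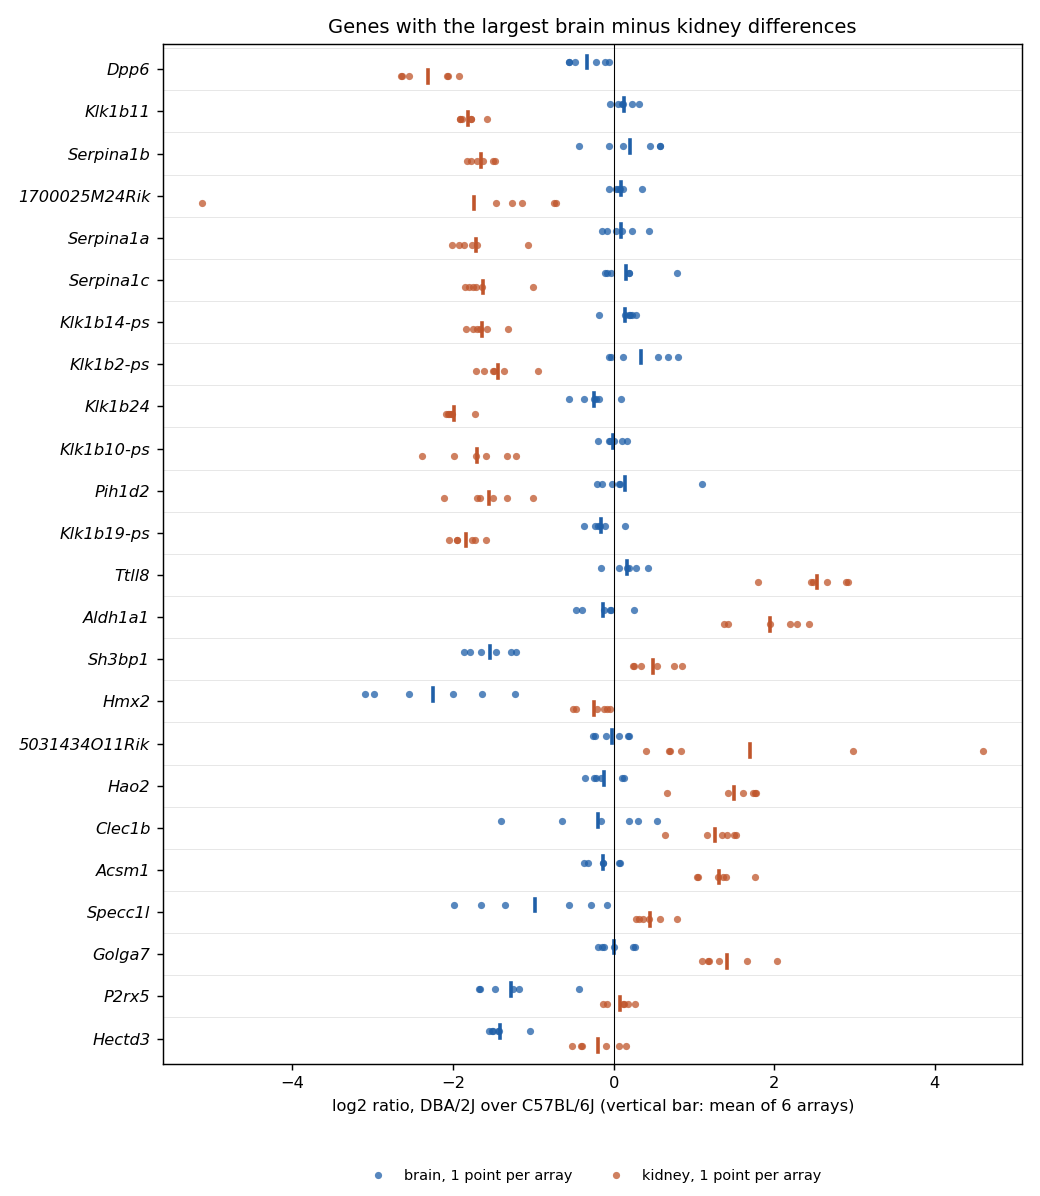
Log2 strain ratio on each of 6 brain (blue) and 6 kidney (orange) arrays for the 12 highest and 12 lowest differences among named genes whose tissues do not overlap, with vertical bars at the means. Brain points lie near 0 for most genes, and the genes with brain far below 0 are Hmx2, Sh3bp1, Hectd3, P2rx5 and Specc1l, with means between -2.25 and -0.98.

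Genes with a ratio above 0 in brain only were fewer among the largest differences. Thbs2, a matricellular thrombospondin, had brain values between 1.06 and 2.22 with a median of 1.53, against kidney values between -0.24 and 0.37 with a median of -0.07. Brain was high on all 6 arrays, 2.97-fold in the mean, and the difference was 1.58 ± 0.17 (adjusted p = 7.17e-07). Vip, the neuropeptide vasoactive intestinal peptide, had brain values between 0.40 and 1.71 (median 0.93) and kidney values between -0.23 and 0.41 (median -0.14). Kidney array 3, at 0.41, was level with the lowest brain arrays and the tissues overlapped there. The difference was 1.06 ± 0.20 (adjusted p = 0.000535), and 1.15 without kidney array 3.

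The sign of the strain ratio turned between the tissues for 275 features (1.36%), each with a ratio that differed from 0 in both tissues and a difference that passed. DBA/2J was higher in brain and lower in kidney for 158 of them and the reverse for 117, and 225 were named genes. The ratio of a single tissue keeps the effect of the dyes on the spot, and the count of sign changes depends on where 0 lies on each array. Fewer sign changes were found with a single loess curve per array (156) and with intensities not restored (126).

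Plvap, a protein of the diaphragms of fenestrated endothelium, was higher in DBA/2J brain and lower in DBA/2J kidney. Its brain values lay between 0.13 and 0.96 (median 0.66) and its kidney values between -1.52 and -0.65 (median -0.78). No value of either tissue crossed 0, and the difference was 1.5 ± 0.15 (adjusted p = 2.75e-07), or 1.38 without kidney array 3, the lowest, and 0.88 without loess. Nr2f2, the nuclear receptor COUP-TFII of venous endothelium and interneurons, stood at 0.25 ± 0.20 in brain and -1.03 ± 0.22 in kidney, again with every array on its own side of 0. Klk1b2-ps (0.34 ± 0.38 in brain and -1.44 ± 0.27 in kidney) and the transcript 6330411E07Rik (0.32 ± 0.30 and -1.18 ± 0.21) had brain arrays on both sides of 0. Vmn1r15, a vomeronasal receptor gene, gave brain values from -0.22 to 1.81 and kidney values from -0.86 to -0.31. The kidney spots of Vmn1r15 and Nr2f2 were dim (percentiles 11.7 and 17.5), as was the brain spot of 6330411E07Rik (percentile 10.3). Those of Plvap and Klk1b2-ps were bright in kidney (percentiles 85.2 and 97.1). Ttc39c had a difference of 1.23 ± 0.11, but its spot was among the dimmest in both tissues (percentiles 1.61 and 0.0321), and the difference was 0.27 and did not pass with intensities not restored.

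In the reverse direction Sh3bp1, a GTPase-activating protein for Rac, gave the largest difference. Its brain values ran from -1.86 over a median of -1.56 to -1.22 and its kidney values from 0.24 over 0.44 to 0.85. The tissues lay on opposite sides of 0 on all 12 arrays, and the difference of -2.04 ± 0.12 amounted to 4.12-fold (adjusted p = 7.3e-11). Glul, the glutamine synthetase gene that in brain marks astrocytes, stood at -0.93 ± 0.34 in brain and 0.41 ± 0.36 in kidney. Brain array 6 (-0.27) and kidney array 3 (-0.29) each stood apart from the rest of their tissue and made the groups overlap. The difference was -1.34 ± 0.15 (adjusted p = 1.96e-06), and -1.48 without kidney array 3. Specc1l, a cytoskeletal cross-linking protein, had brain values from -1.98 to -0.08 and kidney values from 0.28 to 0.78, and its difference of -1.44 became -0.55 and did not pass without loess. Slamf7, an adhesion receptor of leukocytes (-1.15 ± 0.15), Tmed6, a protein of vesicle transport (-0.94 ± 0.13), and Rnf43, an inhibitor of Wnt signalling (-0.91 ± 0.15), completed the 6 largest. In kidney the spots of Sh3bp1, Specc1l and Slamf7 lay at percentiles 26.7, 22.8 and 16.1 of brightness, against 83.2, 69.7 and 83.1 in brain. The kidney spots of Glul, Tmed6 and Rnf43 were brighter (percentiles 91.2, 89.9 and 77.1).

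**Figure D3:**
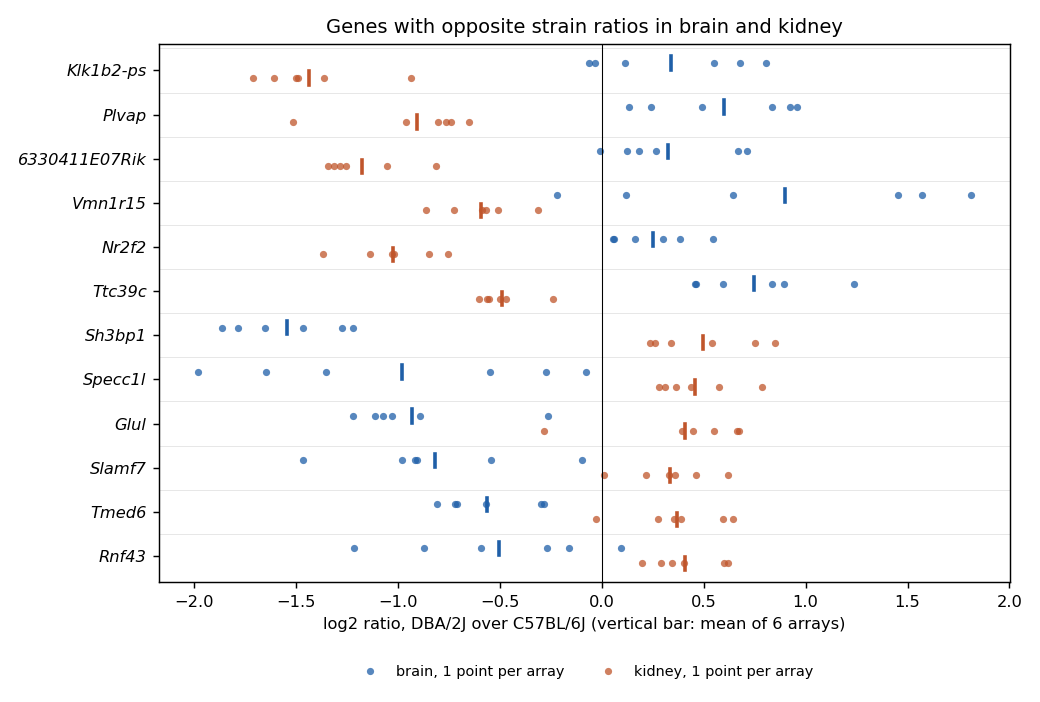
Log2 strain ratio on each of 6 brain (blue) and 6 kidney (orange) arrays for the 6 largest differences in each direction among genes whose ratio has opposite signs in the tissues, with bars at the means. Sh3bp1 separates most widely, at -1.54 in brain and 0.50 in kidney, and the tissues overlap for Glul only.

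A ratio of at least 1.5-fold in the same direction in both tissues was found for 89 features, 43 higher and 46 lower in DBA/2J. The difference between the tissues passed for 18 of these and did not pass for 71. A dye effect on the spot would give the same pattern and cannot be told apart from a shared strain difference here. Bid, a pro-apoptotic BCL-2 family gene, had brain values between -3.47 and -1.94 and kidney values between -3.80 and -2.30. The values overlapped widely, and the difference was 0.10 with a 95% interval from -0.50 to 0.70 (adjusted p = 0.832), although it became -0.78 and passed without loess. Fam32a was 2.02-fold higher in brain and 1.98-fold higher in kidney, with a difference of 0.03 (95% interval -0.26 to 0.32).

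Among the shared genes that did differ in size, Pam, the enzyme that amidates neuropeptides, was higher in DBA/2J by 2.27 ± 0.57 in brain and by 1.62 ± 0.31 in kidney. The difference of 0.64 ± 0.20 (adjusted p = 0.0228) did not pass without any 1 of brain arrays 3 and 5 and kidney arrays 2 and 3, with values from 0.47 to 0.58, nor with intensities not restored (0.46) or after a second loess on the change in intensity (0.57). Satl1, a gene related to spermidine acetyltransferase, was higher by 2.14 ± 0.37 in kidney and by 0.96 ± 0.65 in brain, a difference of -1.18 ± 0.27 (adjusted p = 0.0036). Meis1, a homeobox cofactor, stood at 1.47 ± 0.10 in kidney and 0.96 ± 0.27 in brain, and its difference of -0.51 did not pass without brain array 2 (-0.43) or with arrays scaled to equal spread (-0.37), and was -1.15 without loess. Mmp9, a matrix metalloproteinase, was lower in both, by 2.13 in kidney and 1.53 in brain, a difference of 0.60 ± 0.13 (adjusted p = 0.00239) that was 0.39 and did not pass with arrays scaled to equal spread. Ftl1, the ferritin light chain, stood at -2.38 ± 0.60 in kidney and -1.29 ± 0.64 in brain. Its difference of 1.10 ± 0.41 did not pass (adjusted p = 0.0604). It passed without brain array 3 (1.29), without kidney array 3 (1.26), in the fit of the 12 brain and kidney arrays alone (adjusted p = 0.00833) and with array weights (1.05, adjusted p = 0.0496). It did not pass with a single loess curve per array (1.00), intensities not restored (1.09), scaled arrays (0.87) or the second loess (0.96). Without loess it was 0.28 (adjusted p = 0.589). The Ftl1 pseudogene Ftl2-ps, whose spot may share RNA with Ftl1, passed with 1.42 ± 0.22. Wtap, part of the RNA methyltransferase complex, had a difference of 0.61 that came from spots that disagree, at -0.11 and 1.34, and was 0.11 and did not pass without loess.

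Genes with long-known alleles in these strains were next examined for a difference between tissues. Glo1, glyoxalase 1, is duplicated in DBA/2J and was higher there by 0.66 ± 0.14 in brain and by 0.84 ± 0.33 in kidney. The tissues overlapped, and the difference was -0.17 with a 95% interval from -0.43 to 0.09 (adjusted p = 0.345), but it passed without kidney array 3 (-0.30) and without loess (-0.62). H2-Ea, an MHC class II chain that is silent in C57BL/6J, had kidney values from 0.17 to 1.09 (median 0.97) and brain values from 0.00 to 0.49 (median 0.18), a difference of -0.64 ± 0.16 (adjusted p = 0.00591). Its spot was dim in brain (percentile 5.75). Gabra2, a GABA-A receptor subunit with reduced expression in C57BL/6J, had brain values from 0.33 to 0.70 and kidney values from -0.62 to -0.02. Its groups did not overlap (difference 0.68 ± 0.11, adjusted p = 9.49e-05), though its 2 spots gave 0.35 and 1.01. Nnt, the transhydrogenase with a deletion in C57BL/6J, gave -0.40 ± 0.21 (adjusted p = 0.175), and passed without kidney array 3 (-0.60), without loess (-1.02) and with intensities not restored (-0.64). Gpnmb (0.38 ± 0.10) and Klrd1 (0.34 ± 0.10) had a lower ratio in kidney, but neither passed with a single loess curve per array (0.22 and 0.27), and the value of Gpnmb turned to -0.07 without loess. Alad (0.06 ± 0.10) and Hc (0.05 ± 0.15) did not pass.

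Gene lists of kidney function were described by how many measured members passed, against 10.7% of all features with the ratio higher in brain and 9.4% with the ratio higher in kidney. Enzymes of drug metabolism moved in both directions. Of 43 phase II enzymes, flavin monooxygenases and carboxylesterases 8 had a higher ratio in brain and 11 a higher ratio in kidney (median difference -0.06, against 0.01 over all features). The glutathione transferases Gsta1, Gsta2, Gsta3 and Gsta4, which conjugate electrophiles, all had a lower ratio in kidney. Gsta2 gave kidney values from -1.85 to -1.20 (median -1.54) and brain values from -0.37 to 0.10 (median -0.18), a difference of 1.34 ± 0.10 (adjusted p = 3.68e-09). Without overlap between the tissues, Gsta3 differed by 1.11 ± 0.11, Gsta1 by 0.83 ± 0.11 and Gsta4 by 0.44 ± 0.10. The values of Gsta1, Gsta2 and Gsta3 were 0.41 to 0.64 without loess and still passed. Gsta4 did not pass without loess (0.27) or with intensities not restored (0.27). Sult1d1, a sulfotransferase of catecholamines, differed by 1.06 ± 0.12 but by -0.26 without loess, with its spot at percentile 99.3 in kidney and 2.61 in brain. On the other side stood Ugt2b37 (-0.74), a glucuronosyltransferase, and Sult1c2 (-0.69).

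Of 42 cytochrome P450 genes 6 were higher in brain and 4 higher in kidney, shares near those of all features (median 0.06, but -0.06 after a second loess on the change in intensity). Cyp4a12a, an androgen-dependent fatty acid hydroxylase of male kidney, had kidney values of 0.39 on array 3 and from 1.97 to 2.30 on the others, against brain values from -0.18 to 0.40. The difference was -1.71 ± 0.22 (adjusted p = 7.88e-06), and -2.01 without kidney array 3. Its relative Cyp4a10, a target of PPAR-alpha, had a kidney mean of -0.97 ± 0.14 and a difference of 1.01 ± 0.11, which was -0.17 without loess and 0.29, not past the threshold, with intensities not restored. Cyp2a4, a steroid hydroxylase, resembled Cyp4a12a, with 0.30 on kidney array 3 and 1.69 to 2.02 on the other kidney arrays. Its difference was -1.55 ± 0.22, and -1.81 without that array. The closely related Cyp2a5 was high in both tissues (1.53 ± 0.76 in kidney and 1.03 ± 0.68 in brain), and its difference of -0.50 did not pass, but did so without kidney array 3 (-0.80) and without loess (-1.23).

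Of 16 androgen-responsive genes of mouse kidney 4 had a higher ratio in brain and 6 a higher ratio in kidney, with a median of -0.02 that was -0.75 without loess and 0.03 with a single loess curve per array. Cyp4a12a, Hao2 and the organic anion transporter Slco1a1 (-0.75 ± 0.15, and -1.42 without loess) lay on the kidney side, and Acsm3 and the nudix hydrolase Nudt19 (0.66) on the brain side. The labels do not give the sex of the mice. Of 47 genes of fatty acid oxidation and peroxisomes 6 were higher in brain, led by Etfdh (0.72 ± 0.12, but 0.05 without loess), an electron transfer enzyme, and 10 higher in kidney, led by Hao2 and by the peroxisome import gene Pex14 (-0.80 ± 0.12, and -1.45 without loess). The list median was -0.06, and without loess -0.50 with 0 higher and 28 lower. The major urinary protein genes Mup2, Mup3 and Mup5, pheromone carriers made chiefly in liver, all had a higher ratio in kidney (differences -1.07 to -0.87). Kidney array 3 was below the others for Mup3, at 0.19. Albumin, Alb, likewise stood at 0.84 ± 0.19 in kidney and -0.14 ± 0.27 in brain (-0.98 ± 0.23, adjusted p = 0.0047). Its spot was brighter in brain (percentile 85.3) than in kidney (percentile 67.4). Of the whole list of 18 hepatocyte markers 2 were higher in brain (Serpina1a and Serpina1b), 4 were higher in kidney and 12 did not pass, and on single arrays the list median lay between -0.02 and 0.15 in kidney and between -0.17 and 0.11 in brain. The part of other cells in these differences was not tested.

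Along the nephron, proximal transporters and genes of the more distal segments were compared as lists. In whole-tissue RNA fewer cells of a type and less RNA per cell cannot be told apart. Of 37 proximal transporters 6 were higher in brain and 5 higher in kidney (median -0.13). Slc13a3, a dicarboxylate transporter (-0.74 ± 0.12), and Slco1a1 stood on the kidney side without overlap between tissues. Slc22a7, an organic anion transporter, stood on the brain side (0.65 ± 0.11), but at -0.08 without loess. The spots named Slc22a7 and Slco1a1 were bright in brain (percentiles 94.1 and 94.7) as well as in kidney (96.9 and 95.3). Abcc2, an export pump at 0.92 ± 0.30, passed with an adjusted p of only 0.0332 and did not pass without any 1 of 7 arrays, with values from 0.73 to 0.92, nor without loess (0.48), with intensities not restored (0.35) or after the second loess (0.80). Without loess 1 proximal gene was higher in brain and 26 were higher in kidney, with a median of -0.67, whereas the median was 0.15 over the 13 members within 2-fold intensity.

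Of 38 distal tubule and collecting duct genes 7 were higher in brain and 3 higher in kidney. Umod, uromodulin of the thick ascending limb, had kidney values from -1.01 to -0.68 (median -0.78) and brain values from -0.20 to 0.33 (median 0.04), a difference of 0.86 ± 0.11 (adjusted p = 5.06e-06). S100g, the calcium-binding protein calbindin-D9k, differed by 1.06 ± 0.10. Both spots were near the top of brightness in kidney (percentiles 99.6 and 99.7), and without loess the differences were 0.04 and 0.25 and did not pass. Stk39, the kinase that activates the salt cotransporters, went the other way at 1.21 ± 0.20 in kidney and 0.05 ± 0.28 in brain, a difference of -1.16 ± 0.13 (adjusted p = 8.51e-07) that was -1.36 without loess. Kcnj1, the ROMK potassium channel (0.63), and the sodium channel subunits Scnn1a (0.65) and Scnn1b (0.50) were higher in brain as a ratio. The list median of 0.12 turned to -0.13 without loess and -0.02 with intensities not restored.

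Genes of brain function were described in the same way. Of 29 genes of neuropeptides and their processing 10 were higher in brain and 1 higher in kidney (median 0.18, and between 0.07 and 0.39 under all alternatives run). Besides Vip and Pam these were the prohormone convertase Pcsk1 (0.76 ± 0.14), neuropeptide Y, Npy (0.67 ± 0.14), the granin Scg3 (0.65), the melanin-concentrating hormone Pmch (0.54), Cartpt (0.48), the opioid precursors Pdyn (0.41) and Penk (0.38), and Tac2 (0.33). Npy gave brain values from -0.01 to 0.59 and kidney values from -0.62 to -0.23, without overlap, and its difference was 0.42 without loess. Neurotensin, Nts, was lower in brain, with values from -1.32 to 0.07 against -0.09 to 0.31 in kidney, a difference of -0.76 ± 0.17 that did not pass with intensities not restored (-0.49). The spot named Nts was bright in both tissues (percentile 96.6 in brain and 98.2 in kidney). The median of the list lay between 0.09 and 0.25 on the 6 brain arrays and between -0.11 and 0.06 on the 6 kidney arrays, without overlap.

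Among 25 measured GABA and glycine genes, 5 had the higher ratio in brain and 2 in kidney. The receptor subunits Gabra3 (0.99 ± 0.12), Glra1 (0.80 ± 0.11), Gabra2, Gabra4 (0.43) and Gabra5 (0.39) made up the first group. For Gabra3 the kidney values ran from -1.31 to -0.49 and the brain values from 0.02 to 0.36, so its difference came mostly from the kidney side, where its spot lay at percentile 29.1 of brightness against 61.0 in brain. Gabbr1, a GABA-B receptor subunit, was lower in brain (-0.49 ± 0.11), but at 0.09 without loess and at -0.13, not past the threshold, with intensities not restored. The list median was 0.07 and reached 0.46 without loess.

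Of 22 astrocyte genes 7 had a lower ratio in brain than in kidney and 2 a higher one, with a median of -0.16 that was 0.05 without loess. After Glul the lowest were the matrix protein Sparcl1 (-0.90 ± 0.14), the water channel Aqp4 (-0.82 ± 0.15), which collecting ducts also make, and the calcium-binding protein S100b (-0.62 ± 0.14). Sparcl1 had brain values from -0.52 to -0.04 and kidney values from 0.11 to 0.95, every array on its side of 0. The value of S100b turned to 0.11 without loess and did not pass with intensities not restored (-0.25), and that of Sparcl1 was -0.60 without loess. The glutamate transporters Slc1a2 (-0.42) and Slc1a3 (-0.30) and Ndrg2 (-0.33) passed in the same direction, and Apoe (0.47) and Slc7a10 (0.43) in the opposite one. Of 19 genes of myelin and oligodendrocytes 5 were lower in brain and 2 higher, with a median of -0.10 that was 0.01 after a second loess on the change in intensity. Gjb1, a connexin of myelin that kidney also makes, stood at -0.41 ± 0.17 in brain and 0.42 ± 0.21 in kidney (difference -0.83 ± 0.11, adjusted p = 1.58e-05), with Mag (-0.50 ± 0.11), Tspan2 (-0.47 ± 0.12), Trf (-0.28) and Mbp (-0.26) behind it. Without loess the value of Tspan2 was 0.29 and Mag did not pass (-0.25), and Tspan2 did not pass with intensities not restored (-0.13) or after the second loess (-0.33). Ermn (0.51 ± 0.12) and Gpr37 (0.47) went the other way.

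Of 16 endothelial genes 5 had a higher ratio in brain and 0 a higher ratio in kidney, though the list median was only 0.04, and -0.04 with intensities not restored. Plvap was followed by endomucin, Emcn (0.81 ± 0.12), Ly6c1 (0.64 ± 0.11), the VEGF receptor Kdr (0.44 ± 0.12) and the junction protein Esam (0.32). Emcn stood at 0.27 ± 0.23 in brain and -0.55 ± 0.19 in kidney without overlap. Without loess the differences of Emcn, Ly6c1 and Kdr were 0.13, 0.21 and 0.11 and did not pass, and that of Plvap was 0.88 and did. Emcn (0.39) and Ly6c1 (0.29) also did not pass with intensities not restored, nor Kdr after the second loess (0.33).

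**Figure D4:**
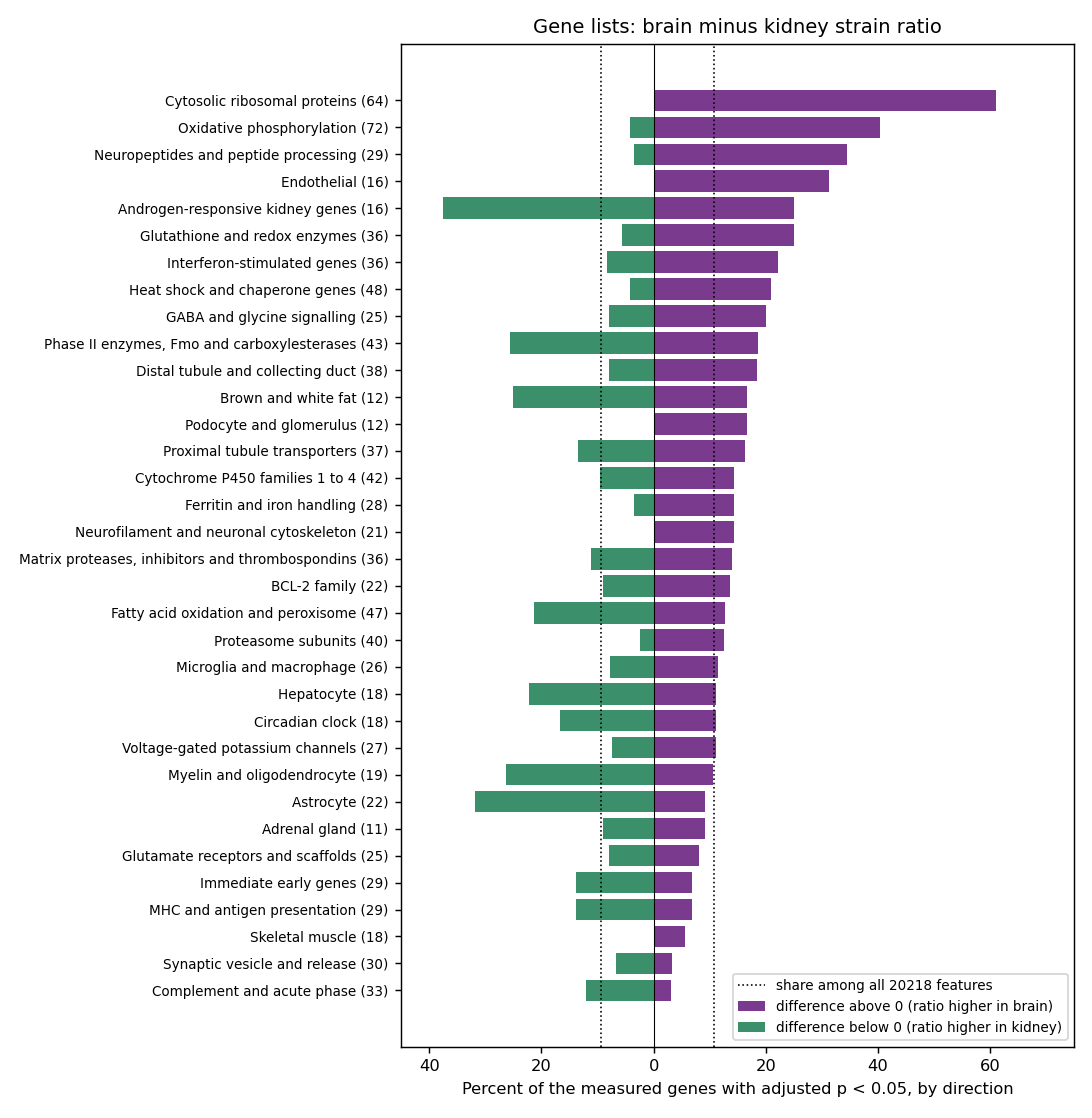
For each gene list, with the number of measured genes in brackets, bars to the right give the percent of genes whose strain ratio was higher in brain and bars to the left the percent higher in kidney, at adjusted p under 0.05. Dotted lines mark the shares among all 20218 features, 10.7% and 9.4%, and ribosomal protein genes reach furthest of the lists drawn, which have at least 10 measured genes, with 39 of 64 to the right and none to the left, a direction that turned without loess.

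Among lists with over 10 measured genes, that of cytosolic ribosomal proteins had the largest share in a single direction, with 39 of 64 higher in brain and 0 higher in kidney (median 0.48), but without loess 0 were higher and 11 lower, with a median of -0.10. Rpl38 led, with brain values from -0.20 to 1.25 (median 0.87) and kidney values from -0.60 to -0.08 (median -0.39), a difference of 1.11 ± 0.18 (adjusted p = 0.000136). Its lowest brain value, on array 1, fell within the kidney range. Rps29 (0.98 ± 0.14), Rplp1 (0.91 ± 0.15) and Rps7 (0.89 ± 0.15) followed. Without loess these 4 differences were between 0.16 and 0.37 and did not pass. The list median was 0.44, 0.35, 0.29, 0.64 and 0.62 on brain arrays 2 to 6 but -0.10 on brain array 1, and on the kidney arrays it lay between -0.23 and 0.01. Without brain array 1 the count was 45 and the median 0.57, and without kidney array 3 they were 37 and 0.46. These spots were among the brightest of both tissues (median percentile 94.7 in brain and 98.2 in kidney), and the part of brightness in this result was not tested beyond the alternatives given.

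Genes of oxidative phosphorylation had the same pattern, with 29 of 72 higher in brain and 3 higher in kidney (median 0.26), but 0 higher and 30 lower without loess (median -0.27). Ndufa1 of complex I (0.97 ± 0.14), Cox6c (0.97 ± 0.15) and Cox7c (0.94 ± 0.14) of cytochrome oxidase and Atp5j of the ATP synthase (0.90 ± 0.13) led, each without overlap between the tissues. Their differences were between -0.03 and 0.22 without loess, and none of these 4 then passed. Ndufa13 (-0.79), Ndufv1 (-0.48) and Atp5g2 (-0.44) went the other way. Brain array 1 was again the lowest brain array, with a list median of -0.07 against 0.17 to 0.40 on the others, and without it 35 were higher and 4 lower.

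**Figure D5:**
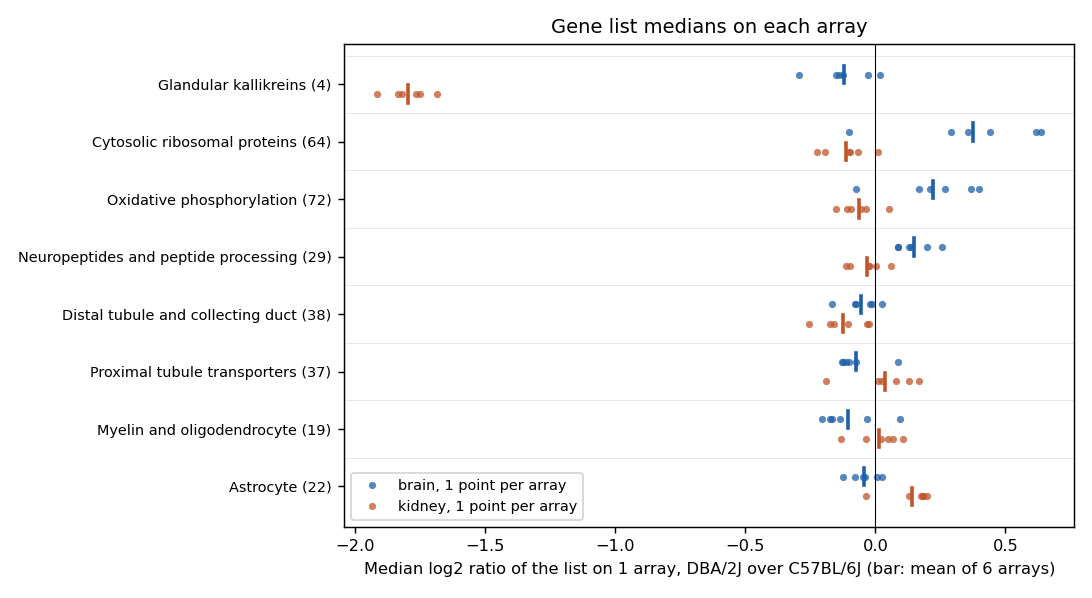
Median log2 strain ratio of 8 gene lists on each of 6 brain (blue) and 6 kidney (orange) arrays, with bars at the means of the arrays. The kallikrein list separates the tissues by the most, ribosomal and oxidative phosphorylation genes stand at -0.10 and -0.07 on brain array 1 and above 0 on the other brain arrays, and without loess the direction of these 2 lists turned.

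Stress and redox genes gave smaller shifts. Of 48 heat shock and chaperone genes 10 were higher in brain and 2 higher in kidney (median 0.05, but -0.16 without loess, with 3 higher and 14 lower, and -0.03 with intensities not restored), led by Hspa5, the chaperone BiP (0.81 ± 0.16), the small heat shock protein Cryab (0.81 ± 0.13), Hspe1 (0.59 ± 0.10) and Hspa8 (0.59 ± 0.15). The 2 spots of Hspa8 gave 1.09 and 0.10. Without loess Hspa5 (0.21), Hspe1 (0.0014) and Hspa8 (-0.08) did not pass, and Cryab did (0.43). Of 36 genes of glutathione and redox enzymes 9 were higher in brain and 2 higher in kidney (median 0.09, but -0.40 without loess, with 1 higher and 19 lower, and -0.05 with intensities not restored). Superoxide dismutase, Sod1, had kidney values from -0.67 to -0.23 and brain values from 0.05 to 0.50, a difference of 0.77 ± 0.11 that was -0.10 without loess. Prdx1, a peroxiredoxin, gave 0.70 ± 0.12 and metallothionein Mt1 0.57 ± 0.15, but without loess neither passed (0.04 and -0.05), nor did Mt1 with intensities not restored (0.42). Glutaredoxin, Glrx, had a difference of -1.18 ± 0.42 (adjusted p = 0.0492) that rested on brain array 5, at -3.67 against -0.05 to 0.42 on the others, and was -0.55 (adjusted p = 0.00461) without it. The call of Glrx ended without any 1 of 8 other arrays, with values from -1.27 to -1.14, and with intensities not restored, with scaled arrays or with the 12 arrays alone (each -1.18). Of 36 interferon-stimulated genes 8 were higher in brain and 3 higher in kidney (median 0.09), among them the ISG15 protease Usp18 (0.72 ± 0.10), the RNA sensor Ifih1 (0.72 ± 0.12), the GTPase Igtp (0.63 ± 0.13) and Ifit2 (0.55 ± 0.12). Without loess the first 3 did not pass (0.08, 0.05 and 0.29), nor did Igtp with intensities not restored (0.48), and Ifit2 was at 0.77.

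Of 28 genes of ferritin and iron handling 4 were higher in brain and 1 higher in kidney (median -0.03, but 0.04 without loess), and beside Ftl2-ps these were Bmp6, which signals iron load (0.58 ± 0.14), the ferroxidase Heph (0.33 ± 0.11) and mitochondrial ferritin, Ftmt (0.29 ± 0.10). Bmp6 was lower in DBA/2J in both tissues, by 1.27 in kidney and 0.68 in brain. The call of Heph ended without any 1 of 6 arrays and that of Ftmt without any 1 of 5, with values down to 0.27 and 0.23. Bmp6 did not pass without loess (0.31) or with intensities not restored (0.38), and neither Heph (0.24) nor Ftmt (0.31) passed with intensities not restored. Of 36 matrix proteases, inhibitors and thrombospondins 5 were higher in brain and 4 higher in kidney (median -0.02, but 0.13 without loess), with Thbs2 far ahead of Adamts1 (0.62 ± 0.16, and 0.05 without loess), Mmp9 and Mmp16 (0.45 ± 0.12). Mmp16 did not pass without loess (0.15) or with intensities not restored (0.05), nor did Adamts1 in the latter (0.39). In the other 18 lists between 0% and 41.7% of the measured genes passed, with medians from -0.18 to 0.15. They include lists of microglia, choroid plexus, pituitary, adrenal, fat, muscle and red cells, which whole tissue can also hold.

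The difference went together with brightness. Across all features it correlated at -0.287 (Pearson's r, as a description over features that share arrays) with the change in spot intensity from kidney to brain. Of 287 features with a 1.5-fold difference from a ratio below 0 in kidney, 77.4% were the brighter in kidney by percentile, and of 272 with a ratio above 0 in kidney 32.0% were, against 50.3% of all features. For the features whose larger ratio was in brain, 79.2% of the 284 above 0 and 19.0% of the 100 below 0 were brighter in kidney. Serpina1a, Klk1b11 and Gsta2 belong to the first set, whereas Hao2, Acsm1 and Cyp4a12a, also brighter in kidney, had a ratio above 0 there. When a second loess took out the trend with the change in intensity, 781 features differed by 1.5-fold, 660 of them among the 943 (70%). The Serpina1 differences then lay between 1.12 and 1.73, and 8 of 9 Klk1b features still passed as higher in brain. In a run meant to keep features whose intensity changed by less than 2-fold between tissues, 469 of 14501 differed by 1.5-fold. None of the Serpina1 features was kept in that window, so it could not be applied to them. The fitted log2 intensities of Serpina1a as they stand, 9.18 in brain and 9.84 in kidney, were within 2-fold. The window thus rested on another scale of intensity. By percentile Serpina1a lay at 53.1 in brain and 88.3 in kidney. Of the Klk1b features the window held 3, of which 2 passed as higher in brain, with a median of 0.43 against 1.70 for all 9.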

How the data were processed

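The deposited table held log2 ratios of 23040 spots per array. Per the labels, Spot quantified the images and limma normalised by print-tip lowess. However, every deposited log2 value (100.0% of 391770, tolerance 1e-12) was a ratio of 2 whole numbers up to 65535, and array medians ran from -1.65 to 0.16. The values were therefore treated as raw. Spots at 0 on every array (1275) were left out. The whole numbers were recovered by continued fractions, with the common factor estimated from the other arrays (assumed SD 0.4), which was exact for 70.2% to 70.5% of simulated factors. The root mean square error of the simulated tissue intensity was 0.245 to 0.250 on the log2 scale. The simulation drew around the fitted intensities with the same SD, so it cannot show how well factors of the real values were recovered. Print-tip loess followed on each array, in 48 blocks of 480 spots each (span 0.3, with 4 iterations), against an intensity that was fitted for each tissue, spots of 1 symbol were averaged, and limma 3.58.1 (R 4.3.3) fitted all 18 arrays. Symbols came from the platform annotation, updated by Entrez identifier through RefSeq GRCm38.p6 (15964 spots matched, 134 spots with several symbols and 4989 with none left unnamed).

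On simulated data 78 of 100 planted 1.5-fold and 97 of 100 planted 2-fold differences were recovered, with 10 false calls. The simulation added independent noise to the trend that the same loess had fitted. It therefore cannot show false calls that come from the normalisation or from brightness. The comparison, the gene lists and the rule for named genes were chosen with earlier results of these data known. The rule took the 12 highest and 12 lowest differences without overlap, 6 genes each way of opposite and of shared sign, all known alleles, and up to 4 genes per described list. Other genes named here are members of those lists or families and were chosen after their values were seen. Of 40 lists, 22 are described, chosen after their counts were seen. Alternatives left out the loess, used a single curve per array, unrestored intensities, scaled arrays, only 12 arrays, a replicate block, array weights, fewer features, single spots, or all arrays but 1. The second loess was added after the data were seen.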

Additional observations from a re-analysis of the deposited data

Results flagged for a closer look

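Of 236 sets of 6 arrays (118 named genes in 2 tissues), 29 held an array whose gap to its nearest neighbour was large against the range of the set (12.3%). About 1 in 20 is found by chance among independent sets. These sets share their arrays and come from genes picked by their values, so an excess cannot be read from that rate. Kidney array 3 was the array that stood apart in 12 of the 29. Seen from the other kidney arrays it was the highest for Serpina1a (-1.07), Serpina1c (-1.0) and Vip (0.41), and the lowest for Hao2 (0.67), Plvap (-1.52), Glul (-0.29), H2-Ea (0.17), Nnt (-0.55), Cyp4a12a (0.39), Cyp2a4 (0.30), Cyp2a5 (0.039) and Mt1 (-0.73). Among the other kidney arrays, array 1 stood below the rest for 1700025M24Rik (-5.12), array 4 above for Kdr (0.15), and array 5 above for Klk1b24 (-1.72) and Ttc39c (-0.24) and below for Cox7c (-0.65) and Hspa8 (-0.82).

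In brain, array 1 stood above the others for Pih1d2 (1.10) and below for Kdr (-0.26), Rps7 (-0.22) and Apoc1 (-4.09). Array 2 stood below for Aqp4 (-0.47), array 3 below for Klk1b14-ps (-0.18) and above for Hectd3 (-1.05), and array 5 above for Serpina1c (0.79) and below for Glrx (-3.67). Array 6 stood above for Glul (-0.27) and below for S100b (-1.31).

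Of the 225 named genes whose strain ratio had opposite signs in the tissues, with a difference that passed, the 6 largest differences in each direction are given. The differences above 0 were those of Klk1b2-ps (1.78), Plvap (1.5), 6330411E07Rik (1.5), Vmn1r15 (1.49), Nr2f2 (1.28) and Ttc39c (1.23). Below 0 were Sh3bp1 (-2.04), Specc1l (-1.44), Glul (-1.34), Slamf7 (-1.15), Tmed6 (-0.94) and Rnf43 (-0.91).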

How the results depend on the processing

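Of 107 named genes past the threshold, 56 passed in the same direction under every alternative that kept them. Under every such alternative but the fit without loess, which moved results the most, 79 did. A gene was kept by 21 to 23 alternatives, since some runs left out features by brightness. Klk1b11, Acsm1 and Gsta2, for example, were kept by 21. Without loess 7113 features differed between the tissues and 3181 did so by 1.5-fold, 372 of them among the 943 (39.4%), and 519 features had a shared 1.5-fold ratio. Without loess the sign turned for Gpnmb (-0.067), Gabbr1 (0.093), S100b (0.11), Tspan2 (0.29), Slc22a7 (-0.084), Cyp4a10 (-0.17), Sult1d1 (-0.26), Cox7c (-0.026), Hspa8 (-0.083), Sod1 (-0.10) and Mt1 (-0.045), and Bid passed at -0.78. Among features within 2-fold intensity 2247 differed, 469 by 1.5-fold, 124 had opposite signs and 55 a shared ratio, with fewer features tested (14501). A single loess curve gave 156 opposite and 157 shared, unrestored intensities 126 opposite, and leaving out dim features 57 shared. The cause of these changes was not tested. Leaving out 1 array at a time gave 3042 to 4501 features, 838 to 1126 at 1.5-fold, 175 to 341 of opposite sign (175 without brain array 2, 183 without brain array 6 and 181 without kidney array 5) and 81 to 92 shared. A single array ended the call of 6 named genes (Abcc2, Glrx, Heph, Ftmt, Pam and Meis1). No pairing of the arrays by number was found after normalisation. Deviations of arrays with the same number correlated between -0.0862 and 0.102, and only 2 of 6 brain arrays correlated best with the kidney array of their number. With the replicate number as a block 3794 features differed, 947 by 1.5-fold, including all 943, and 235 had opposite signs, and of the named genes only Ftmt lost its call. The 6 arrays per tissue limit the precision, and dim spots such as those of Clec1b, Ttc39c and Pih1d2 carry little signal.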
